A study of Rattus norvegicus with 7 samples.

Results

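Transcripts of 8 genes that load glutamate and GABA into synaptic vesicles, make GABA, take it up and break it down were followed in 2 brain regions of the rat. The genes were taken by symbol, and all 8 were found in the hippocampus table and in the hypothalamus table, among 15805 symbols present in both. Where a symbol had more than 1 locus in a table, the locus with the highest mean was used. All 8 had a mean of at least 1 FPKM in at least 1 tissue, the limit for entering the comparison. FPKM counts sequenced fragments per length of transcript and size of library, so that levels of different genes in a library can be set against each other.

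The 7 RNA-seq libraries came from male Sprague Dawley rats that were 2 months old when they began 6 weeks on an omega-3 fatty acid diet with DHA. DHA hippocampus had 4 libraries and DHA hypothalamus had 3. The chow-fed rats of the study are not analysed here, so every group compared had received DHA and no effect of the diet was estimated. The labels do not tie a library to an animal, so each SD measures the spread between libraries.

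Glutamate and GABA are the main excitatory and inhibitory transmitters of the brain. Glutamate enters vesicles through the vesicular glutamate transporters encoded by Slc17a6 (VGLUT2), Slc17a7 (VGLUT1) and Slc17a8 (VGLUT3), and GABA and glycine enter through the vesicular inhibitory amino acid transporter encoded by Slc32a1. VGLUT1 is known as the transporter of cortical and hippocampal principal neurons, and VGLUT2 as that of thalamic, hypothalamic and brainstem neurons. GABA is made from glutamate by the decarboxylases GAD67 (Gad1) and GAD65 (Gad2), is degraded by GABA transaminase (Abat) and is cleared from the extracellular space by transporters that include GAT-3 (Slc6a11), known chiefly from astrocytes.

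Sequences around the start sites of 4 genes are shown because these pairs changed places between the tissues: Slc17a7 and Slc17a6 as the leading glutamate transporter, and Gad1 and Gad2 as the leading decarboxylase. Each is the RefSeq window of the GRCr8 build from 250 bases before to 50 bases after the start site that the table of windows uses, on the strand of the gene. For Slc17a7 and Gad1 that site lies within the gene, after its first annotated base. Slc17a7 lies at chr1:104785955-104786254 (+), Slc17a6 at chr1:110348197-110348496 (+), Gad1 at chr3:75777202-75777501 (+) and Gad2 at chr17:89671468-89671767 (+). Capitals mark matches to the GC box GGGCGG, the TATA box TATAAA or the cyclic AMP response element TGACGTCA on either strand.
Slc17a7: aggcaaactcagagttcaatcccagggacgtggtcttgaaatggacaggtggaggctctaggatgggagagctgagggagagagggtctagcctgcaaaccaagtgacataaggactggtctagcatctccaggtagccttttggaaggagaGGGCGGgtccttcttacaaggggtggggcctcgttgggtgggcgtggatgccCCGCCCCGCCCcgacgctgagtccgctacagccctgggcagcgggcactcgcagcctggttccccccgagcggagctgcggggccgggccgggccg
Slc17a6: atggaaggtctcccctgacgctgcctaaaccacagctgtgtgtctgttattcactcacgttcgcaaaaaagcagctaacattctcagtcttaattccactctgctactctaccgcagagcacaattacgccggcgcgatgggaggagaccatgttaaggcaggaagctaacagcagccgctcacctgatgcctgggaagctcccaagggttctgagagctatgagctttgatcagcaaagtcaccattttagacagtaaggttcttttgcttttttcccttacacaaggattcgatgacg
Gad1: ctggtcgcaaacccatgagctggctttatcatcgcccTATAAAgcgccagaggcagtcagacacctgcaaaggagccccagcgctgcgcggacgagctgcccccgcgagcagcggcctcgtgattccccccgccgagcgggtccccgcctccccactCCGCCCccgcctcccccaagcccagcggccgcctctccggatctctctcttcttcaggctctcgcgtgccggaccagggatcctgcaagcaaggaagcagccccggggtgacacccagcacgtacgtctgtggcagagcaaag
Gad2: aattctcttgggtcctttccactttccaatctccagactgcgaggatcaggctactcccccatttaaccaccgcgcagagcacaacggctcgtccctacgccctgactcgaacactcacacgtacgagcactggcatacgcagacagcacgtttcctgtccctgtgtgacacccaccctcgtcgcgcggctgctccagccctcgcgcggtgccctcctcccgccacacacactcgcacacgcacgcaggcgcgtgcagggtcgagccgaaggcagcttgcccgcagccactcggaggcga

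RefSeq windows were found for 7 of the 8 genes, all but Abat. The Slc17a7 window held 3 matches to the GC box, 2 of them overlapping, and the Slc17a6 window held 0. The Gad1 window held 1 GC box and 1 TATA box, and the Gad2 window held neither. GC boxes also stood in the windows of Slc6a11 (5 matches) and Slc32a1 (1 match), and 33.1% of all 33469 windows held at least 1. The TATA box stood in 14.2% of all windows and the cyclic AMP response element in 1.83%, and the latter in 0 of the 7. GC content was 64.7% for Slc17a7 and 49.0% for Slc17a6, beside a median of 51.7% over all windows. It was highest for Slc32a1, at 73.7% with 42 CpG dinucleotides, and for Slc6a11, at 73.3% with 30. Gad1 had 67.7% and 26, and Gad2 had 63.7% and 29, beside a median of 7 CpG over all windows. These matches describe the letters of the windows and are not evidence of binding.

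The deposited values added up to 370020 to 391349 FPKM per hippocampus library and to 443335 to 471484 FPKM per hypothalamus library. Across tissues, each library was therefore rescaled to a sum of 1000000 over the shared symbols, and differences are of mean log2(rescaled value + 1), hippocampus minus hypothalamus. A gene was called higher in a tissue when all libraries of that tissue lay above all of the other, with at least a 2-fold difference of means on that scale. Each tissue has its own table, so tissue and table cannot be told apart, and no test was made between them. Of 8 hypothalamic marker genes, all 8 were called higher in hypothalamus, and Oxt and Otp were listed at 0 in every hippocampus library. Of 6 hippocampal markers, 5 were in both tables. Wfs1, Prox1, Neurod6 and Itpka were called higher in hippocampus, and Spink8 had a mean of only 0.133 FPKM there and 0.578 FPKM in hypothalamus.

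Glutamate transporter transcripts were almost entirely Slc17a7 in hippocampus and almost entirely Slc17a6 in hypothalamus. Transcripts of the GABA genes were all higher in hypothalamus, most of all Slc6a11 and Gad2. Of the 8 genes, 1 was called higher in hippocampus (Slc17a7), where the rule called 14.5% of all 10736 symbols compared. Another 3 were called higher in hypothalamus (Slc17a6, Slc6a11 and Gad2), where the rule called 13.4% of all symbols. Without the requirement of a 2-fold difference, 6 of the 8 genes lay higher in every hypothalamus library, against 24.4% of all symbols, and 1 lay higher in every hippocampus library, against 28.2%. The median difference of the 8 genes was −0.77 on the log2 scale, beside 0.05 over all symbols compared. In these bulk samples, fewer cells of a type and less RNA per cell cannot be told apart.

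**Figure D1:**
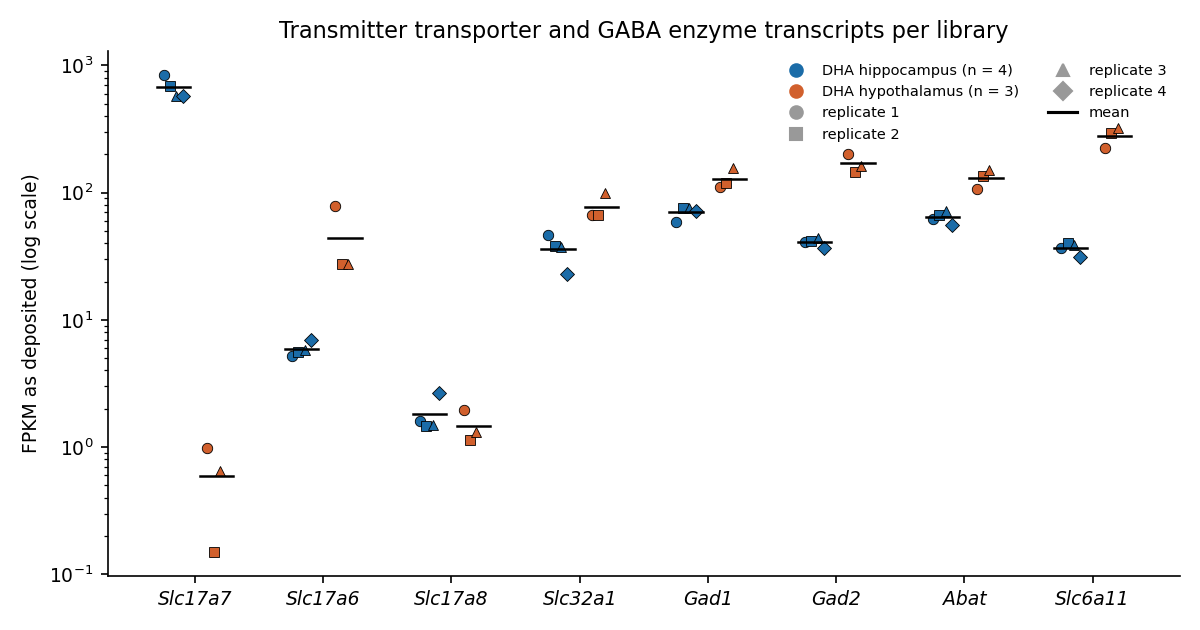
Deposited FPKM on a log axis for each of the 8 genes, with 1 point for each library (4 of DHA hippocampus in blue, 3 of DHA hypothalamus in orange, symbols for the replicate number) and a bar at each mean. Slc17a7 lies between 571 and 847 FPKM in hippocampus and below 1 FPKM in hypothalamus, Slc17a8 overlaps between the tissues, and the other 6 genes lie higher in every hypothalamus library.

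Slc17a7, the VGLUT1 gene, read 847, 694, 574 and 571 FPKM in hippocampus replicates 1 to 4 and 0.985, 0.150 and 0.648 FPKM in hypothalamus replicates 1 to 3. The groups are far apart, and hippocampus replicate 1 is the highest library. Its mean of 671 FPKM put it above 99.6% of the symbols compared in hippocampus, and its hypothalamic mean of 0.595 FPKM stood above 1.71% of them. The difference was 9.74 on the log2 scale, the second largest of all 10736 symbols towards hippocampus. As the hypothalamic level is near 0, this size depends on the pseudocount and the scaling, and it ranged from 8.24 to 10.6 over the alternatives tried.

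Slc17a6, the VGLUT2 gene, had a much lower level in hippocampus, with 5.15, 5.63, 5.78 and 6.93 FPKM in replicates 1 to 4. In hypothalamus it read 78.1, 27.4 and 27.5 FPKM. The groups do not overlap, and hypothalamus replicate 1 stands far above the other 2 libraries. The difference was −2.37 on the log2 scale, and −1.86 without hypothalamus replicate 1, so the call did not rest on that library.

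The hypothalamus table lists 2 loci of Slc17a6, over which the values are spread differently between libraries. The second locus, XLOC_002071, was listed at 0 in replicate 1 and read 16.2 and 15.8 FPKM in replicates 2 and 3, which is 37.2% and 36.4% of the 2 loci together. With the loci summed, the libraries read 78.1, 43.6 and 43.3 FPKM, so replicate 1 was still the highest, and the difference from hippocampus was −2.84 on the log2 scale. The table gives no strand, and the strand setting used for each library is not given in the sources used here. Whether replicate 1 was counted like replicates 2 and 3 at these loci is therefore not known. Among the 37 rows within 25 rows of the higher locus whose genes have a strand in RefSeq, 89.2% were on the strand of Slc17a6, and among the 37 around the second locus 8.11% were. In hippocampus Slc17a6 had 1 locus.

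Markers of the thalamus, a region beside the hypothalamus whose neurons are known to carry VGLUT2, were also highest in hypothalamus replicate 1 for 3 of the 5 genes listed. Tcf7l2 read 17.0 FPKM there, against 9.03 and 9.43 in replicates 2 and 3. Gbx2 read 4.58 against 0.531 and 1.57 FPKM, and Shox2 read 5.36 against 0.742 and 0.913 FPKM. The other two were highest in replicate 2, Lef1 at 6.64, 7.86 and 5.31 FPKM and Rgs16 at 9.04, 18.45 and 13.8 FPKM in replicates 1 to 3. The summed level of the 5 genes was 42.6, 36.6 and 31.0 FPKM in hypothalamus replicates 1 to 3 and from 9.80 to 17.8 FPKM in hippocampus, with none of the 5 at 0 in hypothalamus and 1 at 0 in each hippocampus library. Of the 5, 4 were called higher in hypothalamus. Their part in the level of Slc17a6 was not tested.

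**Figure D2:**
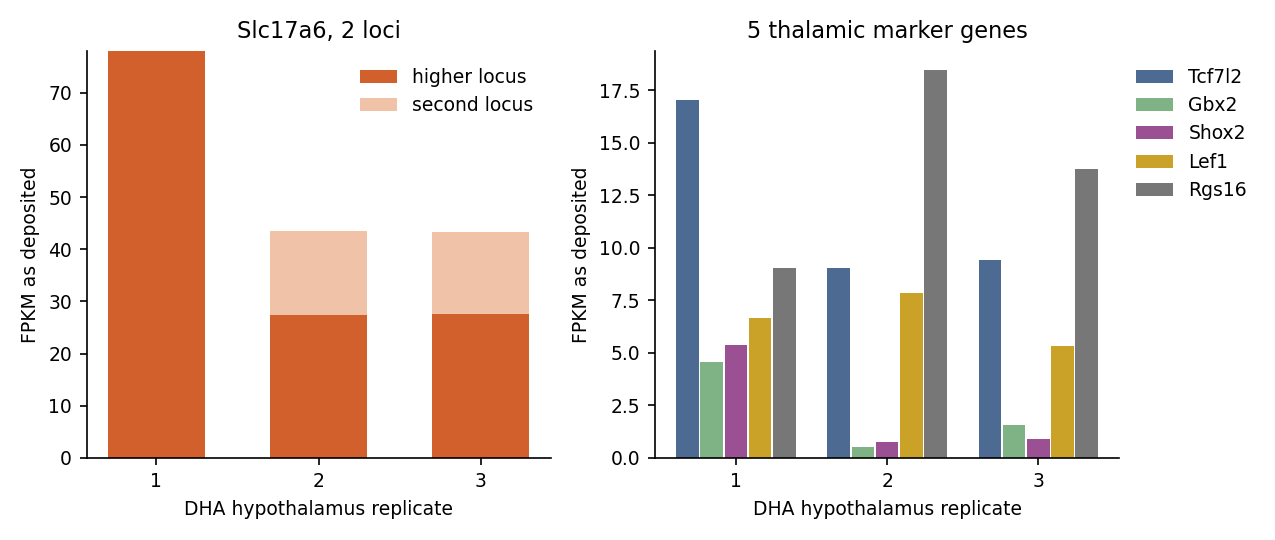
Left, deposited FPKM of the 2 Slc17a6 loci stacked for each of the 3 DHA hypothalamus libraries; right, deposited FPKM of the 5 thalamic marker genes in the same libraries. Replicate 1 has all of its Slc17a6 at 1 locus (78.1 FPKM), replicates 2 and 3 have 16.2 and 15.8 FPKM at the second locus, and Tcf7l2, Gbx2 and Shox2 are highest in replicate 1 while Lef1 and Rgs16 are highest in replicate 2.

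Slc17a8, the gene of VGLUT3, a transporter found in scattered neurons that often release a second transmitter, was low in both tissues. It read 1.60, 1.47, 1.50 and 2.68 FPKM in hippocampus and 1.95, 1.13 and 1.30 FPKM in hypothalamus. The libraries overlap, and hippocampus replicate 4 is the highest. The difference was 0.48 on the log2 scale. Without hypothalamus replicate 1 it was 0.67 and the groups no longer overlapped, still short of the 2-fold limit.

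Shares of the glutamate transporters within a library do not depend on how the tables were scaled. Slc17a7 made up 99.2%, 99.0%, 98.7% and 98.3% of the summed FPKM of Slc17a6, Slc17a7 and Slc17a8 in the hippocampus libraries (98.8% ± 0.370, SD, n = 4). In hypothalamus it made up 1.22%, 0.524% and 2.20%. Slc17a6 took 96.4%, 95.5% and 93.4% of the sum in hypothalamus replicates 1 to 3, a mean of 95.1% ± 1.55 (SD, n = 3), and from 0.603% to 1.19% in hippocampus. Each library of a tissue was thus led by the same gene. Slc17a8 took 2.41%, 3.95% and 4.42% in hypothalamus, above its 0.187% to 0.462% in hippocampus, although its own FPKM overlapped, because the sum of the 3 genes was lower in hypothalamus. Hippocampus libraries had a sum of 679 ± 130 FPKM (SD, n = 4), and hypothalamus replicates 1 to 3 had 81.0, 28.6 and 29.5 FPKM. With both Slc17a6 loci counted, the sums of hypothalamus replicates 2 and 3 were 44.9 and 45.2 FPKM. The Slc17a8 shares there then fell to 2.52% and 2.88%, and the Slc17a7 shares to 0.335% and 1.43%.

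**Figure D3:**
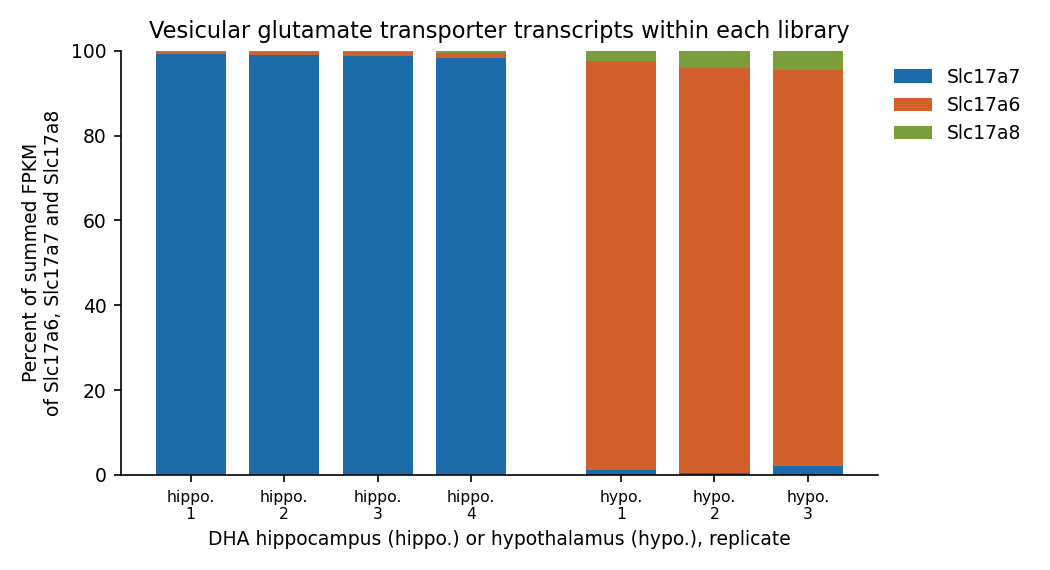
Percent of the summed FPKM of the 3 vesicular glutamate transporter genes held by each gene, with 1 stacked bar for each library. Slc17a7 fills at least 98.3% of every DHA hippocampus bar, and Slc17a6 fills at least 93.4% of every DHA hypothalamus bar.

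Slc32a1, whose product loads GABA into vesicles, read 46.6, 37.9, 37.2 and 22.8 FPKM in hippocampus and 66.6, 66.5 and 100.007 FPKM in hypothalamus. Every hypothalamus library lies above every hippocampus library, and hippocampus replicate 4 is the lowest. The difference was −0.82 on the log2 scale, short of the 2-fold limit. It reached that limit with FPKM as deposited (−1.10) and without replicate 1 of both tissues (−1.04). The hypothalamus table has a second locus of Slc32a1, which held at most 2.66% of the 2 loci together.

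Set against the glutamate transporters of the same library, Slc32a1 stood at 0.0546, 0.0541, 0.0640 and 0.0393 times their sum in hippocampus replicates 1 to 4. In hypothalamus it stood at 0.823, 2.32 and 3.39 times their sum. The 2 tissues are far apart, and Slc32a1 exceeded the glutamate transporters in hypothalamus replicates 2 and 3 but not in replicate 1, the library with the high Slc17a6. The mean log2 ratio was −4.26 ± 0.29 in hippocampus (SD, n = 4) and 0.90 ± 1.06 in hypothalamus (SD, n = 3). Without hypothalamus replicate 1 the latter was 1.49. With loci summed, the hypothalamic ratios were 0.830, 1.52 and 2.27.

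Gad1, the GAD67 gene, read 58.9, 75.2, 75.1 and 72.1 FPKM in hippocampus and 110, 118 and 156 FPKM in hypothalamus. Hippocampus replicate 1 is low and hypothalamus replicate 3 high, with no overlap between the tissues. The difference was −0.56 on the log2 scale, the smallest of the 6 genes that lay higher in every hypothalamus library, and no alternative tried brought it to the 2-fold limit. Gad2, the GAD65 gene, read 40.7, 41.5, 43.9 and 36.8 FPKM in hippocampus, the smallest spread of the 8 genes at 7.29% of the mean. In hypothalamus it read 202, 146 and 163 FPKM, with replicate 1 highest. Its difference was −1.75 on the log2 scale, and it was called in every alternative tried.

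The order of the decarboxylases was opposite in the tissues. In hippocampus Gad1 stood at 1.45, 1.81, 1.71 and 1.96 times Gad2 in replicates 1 to 4. In hypothalamus it stood at 0.544, 0.809 and 0.955 times Gad2. Gad1 was the higher gene in all 4 hippocampus libraries and Gad2 in all 3 hypothalamus libraries, and hypothalamus replicate 3 came nearest to equality. The mean log2 ratio was 0.78 ± 0.19 (SD, n = 4) in hippocampus and −0.42 ± 0.42 (SD, n = 3) in hypothalamus. With 1 hypothalamus library left out, the latter ranged from −0.59 to −0.19. Like the other ratios, that of Gad1 to Gad2 does not change with the scaling of a library.

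Abat, the gene of GABA transaminase, read 62.4, 66.9, 71.4 and 55.8 FPKM in hippocampus and 107, 134 and 152 FPKM in hypothalamus. The groups do not overlap, and replicate 4 of hippocampus and replicate 1 of hypothalamus are the lowest of their tissues. The difference was −0.72 on the log2 scale. With FPKM as deposited it was −1.01 and passed the 2-fold limit. The decarboxylases together stood at 1.60 to 1.95 times Abat in hippocampus and at 1.97 to 2.93 times in hypothalamus, with replicate 1 at the top of the latter.

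Slc6a11, the gene of the GABA transporter GAT-3, had the largest difference towards hypothalamus among the 8 genes at the loci used. With loci summed, Slc17a6 had a larger difference, −2.84 against −2.64 for Slc6a11. Slc6a11 read 36.9, 40.5, 39.0 and 31.0 FPKM in hippocampus and 224, 293 and 322 FPKM in hypothalamus. The lowest hypothalamus library is several times the highest hippocampus library. The difference was −2.61 on the log2 scale, at rank 229 of 10736 symbols towards hypothalamus, and it ranged from −2.88 to −2.52 over the alternatives tried. Its mean of 280 FPKM was the highest of the 8 genes in hypothalamus.

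Against Abat, which has a single locus in each table, Slc6a11 stood at 0.546 to 0.605 times in hippocampus and at 2.11 to 2.18 times in hypothalamus. The means were 0.575 ± 0.0283 (SD, n = 4) and 2.14 ± 0.0394 (SD, n = 3).

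Of 4 astrocyte markers found in both tables, Aqp4 and Aldh1l1 were called higher in hypothalamus, and Gfap and Gja1 overlapped. Aqp4 averaged 87.6 ± 14.0 FPKM in hippocampus against 247 ± 43.3 FPKM in hypothalamus, and Aldh1l1 read 15.1 ± 1.97 against 47.1 ± 11.4 FPKM (SD, n = 4 and n = 3). The 4 genes summed to 505 to 575 FPKM in hippocampus and 732 to 1110 FPKM in hypothalamus, and none was at 0 in any library. Of 5 neuronal markers, Snap25 and Syt1 were called higher in hippocampus, and Snap25 lost its call with upper quartiles and with FPKM as deposited. Rbfox3 and Stmn2 fell short of the 2-fold limit and Eno2 overlapped. The 5 genes summed to 1430 to 2340 FPKM in hippocampus and 844 to 1018 FPKM in hypothalamus. The part of either in the levels of the 8 genes was not tested.

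**Figure D4:**
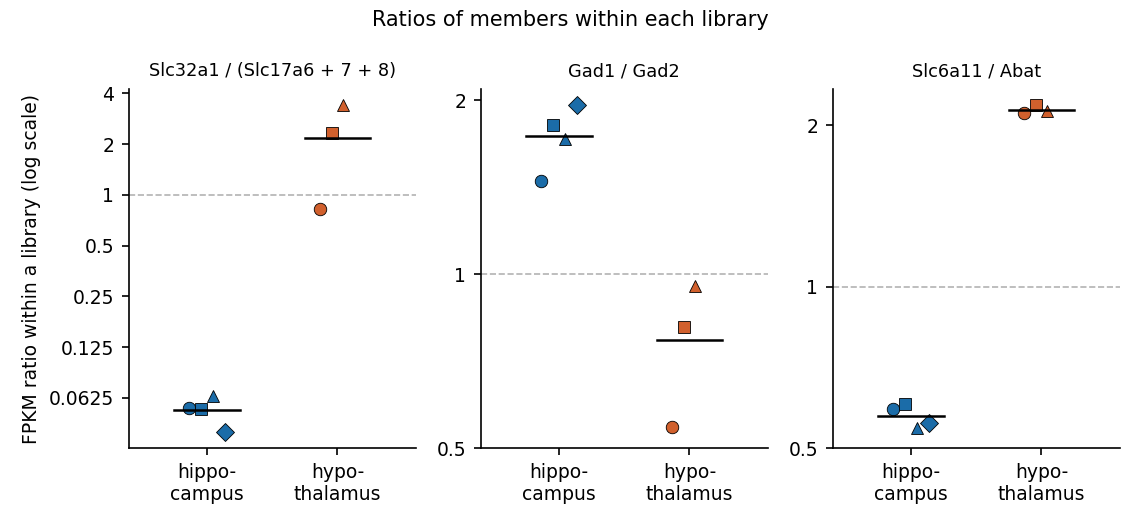
FPKM ratios within each library on log axes, with 1 point for each library (circle, square, triangle and diamond for replicates 1 to 4), a bar at each mean and a dashed line at equality. The tissues do not overlap in any of the 3 panels, and the Gad1 to Gad2 ratio lies above 1 in every DHA hippocampus library and below 1 in every DHA hypothalamus library.

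Within hippocampus the order of mean FPKM was Slc17a7, Gad1, Abat, Gad2, Slc6a11, Slc32a1, Slc17a6 and Slc17a8. The libraries of Gad1 and Abat overlapped, as did those of Gad2 and Slc6a11 and those of Slc6a11 and Slc32a1, and the other neighbours were separate. Within hypothalamus the order was Slc6a11, Gad2, Abat, Gad1, Slc32a1, Slc17a6, Slc17a8 and Slc17a7. There the libraries of Gad2 and Abat, of Abat and Gad1, and of Slc32a1 and Slc17a6 overlapped. Slc6a11 led in hypothalamus but not in hippocampus, and Slc17a7 led in hippocampus and came last in hypothalamus.

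The direction of these differences was then examined under other scalings, since the rescaling decides where 0 lies. Over all compared symbols the median difference was 0.05 with equal sums, −0.05 with median ratios, −0.09 with upper quartiles and −0.21 with FPKM as deposited. The 1560 symbols called higher in hippocampus and 1439 called higher in hypothalamus, a hippocampal share of 52.0%, became 928 (8.64% of all symbols) and 1819 (16.9%) with FPKM as deposited, a share of 33.8%. Among the 8 genes, the same 7 kept their separation under each of the 4 scalings and Slc17a8 overlapped under each. With FPKM as deposited, 19% of all symbols lay higher in every hippocampus library and 35.2% in every hypothalamus library. Under FPKM as deposited 5 genes were called higher in hypothalamus, Slc32a1 and Abat being added.

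**Figure D5:**
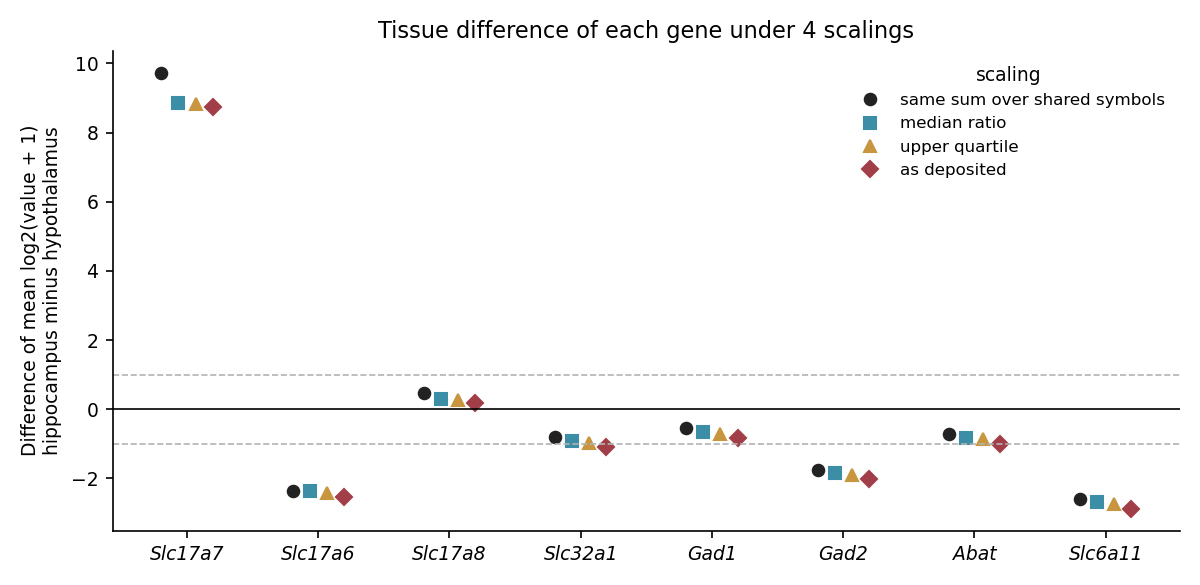
Difference of mean log2(value + 1), DHA hippocampus minus DHA hypothalamus, for each of the 8 genes under 4 scalings, with dashed lines at a 2-fold difference. No gene changes its direction, and Slc32a1 and Abat cross the lower line with FPKM as deposited, at −1.10 and −1.01.

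Other genes of glutamate and GABA handling were taken as 7 lists, of which 39 genes could be compared. Of these, 11 were called higher in hippocampus and 9 in hypothalamus, where the rule called 14.5% and 13.4% of all symbols compared. With a pseudocount of 5 the count in hypothalamus was 6. Among 5 genes of the family of plasma membrane glutamate transporters, of which Slc1a4 encodes the neutral amino acid transporter ASCT1, 2 were called higher in hippocampus and 0 in hypothalamus. Slc1a2, the gene of the astrocytic transporter GLT-1, had the highest level, with a hippocampal mean of 672 ± 149 FPKM (SD, n = 4) against 221 ± 33.5 FPKM (SD, n = 3). Slc1a1, the gene of the neuronal transporter EAAC1, was at 75.9 ± 10.05 against 23.9 ± 6.09 FPKM.

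Of 9 genes of the glutamine cycle, which returns transmitter glutamate to neurons as glutamine, 1 was called higher in hypothalamus and 0 in hippocampus under the rule. Slc38a5, a glutamine transporter gene, was the gene called, with 1.03 ± 0.379 FPKM in hippocampus against 3.97 ± 0.960 FPKM in hypothalamus, and its call was lost with a pseudocount of 5. The count in hypothalamus rose to 2 with FPKM as deposited and without replicate 1 of both tissues, by Slc38a3 (−1.10 and −1.07), and with loci summed, by Slc38a2 (−1.11). Slc38a2, chosen after its values were seen, read 34.6 to 50.2 FPKM in hippocampus and 0, 94.1 and 63.2 FPKM at the locus used in hypothalamus replicates 1 to 3, where its difference was 1.84. It was −0.60 at that locus without replicate 1 of both tissues, so its direction also turned without those libraries. Glul, the gene of glutamine synthetase and the most abundant of the list, read 796 ± 23.8 and 882 ± 48.6 FPKM, and its direction changed with the scaling, from 0.15 to −0.15 with FPKM as deposited.

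Of 4 genes of GABA uptake and degradation that could be compared beside Slc6a11 and Abat, 0 were called in either direction under the rule, which has no p-value. Slc6a13, the gene of the GABA transporter GAT-2, had the largest difference of the list, −2.32 on the log2 scale, and was chosen after its values were seen. It read 11.3 FPKM in hippocampus replicate 3 and at most 1.37 FPKM in the other hippocampus libraries, and 22.9, 26.2 and 6.08 FPKM in hypothalamus. It was called without hippocampus replicate 3 or without hypothalamus replicate 3. Of the 5 meningeal markers, Col1a2 was listed at 0 throughout and 0 were called. They summed to 37.0, 40.5, 169 and 79.9 FPKM in hippocampus replicates 1 to 4 and to 107, 246 and 46.4 FPKM in hypothalamus replicates 1 to 3. The 5 choroid plexus markers found in both tables, of which 0 were called, summed to 4726, 35.1, 5926 and 2059 FPKM in the same hippocampus libraries. In the hypothalamus libraries these summed to 39.1, 52.5 and 14.2 FPKM. The part of either list in the level of Slc6a13 was not tested. Ogdh, which encodes a subunit of the oxoglutarate dehydrogenase of the citric acid cycle, had the highest level of the 4 compared genes. It averaged 76.3 ± 9.98 FPKM in hippocampus against 62.6 ± 4.02 FPKM in hypothalamus, and its libraries overlapped with FPKM as deposited. Aldh5a1, whose product acts on the product of Abat, was chosen after its values were seen; it averaged 31.7 ± 4.65 FPKM in hippocampus against 43.2 ± 1.92 FPKM in hypothalamus and overlapped after rescaling, though not with upper quartiles or FPKM as deposited. Slc6a9, the gene of the glycine transporter GLYT1, was the only glycine transport gene compared and was called higher in hypothalamus, at 115 ± 32.1 against 25.5 ± 1.81 FPKM.

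Of 8 other vesicular transporters and vesicle proteins compared, 3 were called higher in each tissue. Sv2a, the most abundant, overlapped, at 142 ± 9.03 and 131 ± 46.3 FPKM. The following genes were chosen after their values were seen. Slc30a3, which encodes the zinc transporter of glutamatergic vesicles, averaged 85.8 ± 21.4 FPKM in hippocampus against 2.35 ± 0.992 FPKM in hypothalamus, and Sv2b read 98.0 ± 21.5 against 10.1 ± 3.82 FPKM. Slc18a1, the gene of the vesicular monoamine transporter VMAT1, averaged 3.53 ± 0.719 FPKM in hippocampus against 0.589 ± 0.0675 FPKM in hypothalamus. In the other direction, Slc18a2, the gene of the vesicular monoamine transporter VMAT2, averaged 11.1 ± 1.46 FPKM in hypothalamus against 0.585 ± 0.402 FPKM in hippocampus, and Sv2c read 16.5 ± 1.47 against 3.35 ± 0.739 FPKM. Slc18a3, the vesicular acetylcholine transporter gene, was called higher in hypothalamus at 1.34 ± 0.526 against 0.177 ± 0.104 FPKM, but fell below the 2-fold limit under the other 3 scalings.

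Of 6 factors of glutamatergic neurons in cortex and hippocampus, 6 were called higher in hippocampus. Neurod6, the most abundant, ranged from 59.0 to 77.0 FPKM over the hippocampus libraries and from 0.546 to 1.13 FPKM over the hypothalamus libraries. Of 6 factors of GABAergic neurons, 4 were called higher in hypothalamus (Dlx1, Dlx2, Dlx5 and Nkx2-1) and 0 in hippocampus. Lhx6 and Sp9 overlapped, with differences of 0.42 and 0.31 on the log2 scale. Dlx1, the most abundant of them in hypothalamus, read 19.3 ± 4.71 FPKM there and 6.50 ± 1.15 FPKM in hippocampus. Chosen after its values were seen, Nkx2-1, which is known also for patterning the hypothalamus, read 13.5 ± 3.39 FPKM there against 0.183 ± 0.0809 FPKM in hippocampus.

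The genes most like each of the 8 were found by the root mean square difference of rescaled log2 profiles over the 7 libraries, each profile centred on the mean of its tissue means, among symbols of at least 5 FPKM in a tissue. The tissue difference dominates this measure, and the libraries of a tissue share a table. Slc17a7 was nearest to Lpp (1.08), Ugt2b1 (1.24) and Itpka (1.51), all distant, since few genes differed as much. Slc17a6 was nearest to H3f3b (0.251), Zfp423 (0.316) and Ap1s2 (0.317). Slc6a11 was nearest to the enkephalin precursor gene Penk (0.162), to Rab3b (0.162) and to Hap1 (0.163). Penk averaged 26.6 ± 3.81 FPKM in hippocampus against 203 ± 13.8 FPKM in hypothalamus.

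Gad2 was nearest to Mettl5 (0.0788), Ech1 (0.0811) and Pfdn5 (0.102), and Gad1 to Nfatc2 (0.0544), Xpo6 (0.0951) and Sh3kbp1 (0.0952). Slc32a1 was nearest to Pycrl (0.111), Rasgrp2 (0.113) and Trim11 (0.115), Abat to Nrbp (0.0571), Npr2 (0.0585) and Flii (0.0647), and Slc17a8 to Hs6st2 (0.0465), RGD1566265 (0.0891) and Slc25a16 (0.0905). Among the 8 genes themselves, the closest pair was Gad1 and Abat, at 0.163, followed by Slc32a1 and Abat, at 0.265. Many other symbols lay closer. Of 8468 symbols, Abat was at rank 76 among those nearest to Gad1 and at rank 338 among those nearest to Slc32a1. Among those nearest to Abat, Gad1 was at rank 119 and Slc32a1 at rank 749. Gad1 and Gad2 were farther apart, at 0.649, with Gad1 at rank 1700 of 8468 among the symbols nearest to Gad2 and Gad2 at rank 5244 among those nearest to Gad1.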

How the data were processed

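RNA-seq of 7 libraries (4 DHA hippocampus, 3 DHA hypothalamus) was used as deposited by the authors, in FPKM, with 1 table for each tissue and a status word beside each value. Poly-A RNA was selected and reverse transcribed from random primers, per the labels' protocols. The submitters' processing notes name TopHat, TopHat2, Bowtie, Bowtie2, Cufflinks and Cuffdiff and the build rn5. Versions, annotation, strand setting and normalization between libraries are not given in the sources used here. Columns of other samples numbered 0.

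Loci not marked OK in all libraries of a table were left out (86 in hippocampus, 24 in hypothalamus). The comparison took symbols whose mean reached 1 FPKM in either tissue, rescaled, with a pseudocount of 1, in Python 3.11.15. Calls required separate libraries and a 2-fold difference. The calling step was tested on simulated data. Sequencing depth is not known from FPKM. Low values (under 0.1 FPKM) of hippocampus replicates 2 and 3 had a common ratio of 1.51 at 19.6% of loci, and pairs with replicate 1 had no common ratio above 2.52% of loci. No interval for counting error was computed.

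Members and lists were chosen with earlier results of these data known. The 8 genes were all named. List genes were named when called in the uptake, glutamine or GABA lists or when highest of a list, and others are marked as chosen after their values were seen or stand as members of a counted group. The ratio of Slc6a11 to Abat was added after the values were seen. Some list genes are not reported here and stand in no list count. Synonyms and sequences came from RefSeq (GRCr8). Alternatives were pseudocounts of 0.1 and 5, 3 other scalings, summed loci, other filters, 1 FPKM added to ratios, and leaving out libraries.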

Additional observations from a re-analysis of the deposited data

Results flagged for a closer look

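Dixon's ratio, an outermost library's distance from its neighbour divided by the full range, was computed for 48 results over the hippocampus libraries. It passed its critical value for 5 of them. Chance gives about 1 in 20, or 2.4, for independent results chosen beforehand, which these were not. Shares and ratios reuse the same genes, and some genes, Slc6a13 and Nkx2-1 among them, were chosen after their values were seen. The count of 5 can therefore not be judged against 2.4. Slc17a8 was highest in replicate 4, with a ratio of 0.899, at 2.68 FPKM against 1.47 to 1.60 FPKM in the others. Nkx2-1 was lowest in the same library, with a ratio of 0.907, at 0.0619 FPKM against 0.215 to 0.230 FPKM. Gbx2 was listed at 0 in replicates 2 to 4 and read 0.250 FPKM in replicate 1, which gives a ratio of 1. Slc38a5 was highest in replicate 3, with a ratio of 0.832, at 1.59 FPKM against 0.759 to 0.898 FPKM. Slc6a13 was highest in replicate 3 too, with a ratio of 0.964, at 11.3 FPKM against at most 1.37 FPKM. All but Slc6a13 are of transcripts under 3 FPKM in every hippocampus library.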

How the results depend on the processing

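No direction changed among the differences of the 8 genes under any alternative tried, though their sizes moved with the scaling and the pseudocount. Of the recomputed counts of genes over all symbols, all lists and the 8 genes, the shares and the ratios, 176 stayed within 1.5 times the count or within 1 SD and 9 did not. Of the differences of single genes, the counts in single lists and the Slc6a11 to Abat ratio, 310 did and 15 did not. The mean of a share, a ratio or a single gene's difference moves by less than 1 SD when 1 library is left out. Those recomputations could therefore only be counted as staying, and they say nothing about robustness. With FPKM as deposited, 5 of the 8 genes rather than 3 were called higher in hypothalamus, and 928 rather than 1560 symbols higher in hippocampus. Leaving out each library in turn, the genes lying higher in every hippocampus library numbered 1 to 2, and without both libraries numbered 1 they numbered 2, Slc17a8 being added. The share of all symbols lying so was not computed for these settings, and with every library it was 28.2%. With 1 FPKM added to each gene, the hypothalamic shares became 3.69% for Slc17a7, 90.5% for Slc17a6 and 5.78% for Slc17a8, and the hippocampal share of Slc17a8 became 0.428%. In a paired comparison added after the data were seen, differences were taken within replicate numbers 1 to 3 (a replicate block, without a test). The same calls, 1 in hippocampus and 3 in hypothalamus, were counted among the 8 genes, and 1541 and 1428 of all symbols were called. All 3 differences lay towards hippocampus for 2 of the 8 genes rather than 1. The gene added was Slc17a8, at 0.000712, 0.476 and 0.449 in replicate numbers 1 to 3, the first of these near 0. The share of all symbols with all 3 differences towards hippocampus was not computed. The labels do not say that equal numbers mark the same animal. Deviations of same-numbered libraries correlated at −0.08, −0.20 and −0.33 across symbols, and those of other-numbered libraries at −0.08 to 0.33. Deviations are taken from the mean of each tissue, so these values are not independent and do not settle the pairing. Levels under about 1 FPKM, as of Slc17a7 in hypothalamus, rest on few fragments at an unknown depth.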
